A study of Mus musculus with 15 samples.

Results

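Glycosyltransferases that initiate, branch, extend, fucosylate and sialylate glycan chains were followed through early lung dysplasia. A gene was taken as a member when its symbol began with Galnt, Gcnt, Mgat, B3gnt, B4galt, B3galt, B4galnt, Fut, St3gal, St6gal (St6galnac included) or St8sia and went on with a digit, which gave 82 genes of 18193 that have a probe set of their own on the array; 1 of them, Fut4-ps1, is a pseudogene. Each member was represented by its brightest probe set. Of these, 54 members averaged over 100 in signal across the 15 arrays and were tested; signals below it lie near the background of the arrays.

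Glycans are built in the endoplasmic reticulum and Golgi by enzymes that each add 1 sugar in a given linkage. Galnt enzymes start mucin-type O-glycans, Gcnt and Mgat enzymes open branches, galactosyl and N-acetylglucosaminyl transferases lengthen the arms, and fucosyl and sialyl transferases cap them. In the lung these chains coat mucins, surfactant proteins and the glycocalyx of alveolar and endothelial cells, and altered capping and branching is a long-known trait of carcinomas.

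RNA came from laser-microdissected mouse lung on a C57BL/6 background, with 5 arrays for each of 3 groups. Dysplasia samples were dysplastic foci, and transgenic samples were unaltered tissue of SP-C/c-raf mice, in which c-raf is driven by the surfactant protein C promoter of the respiratory epithelium. By the study's methods, each transgenic mouse, aged 5 to 7 months, gave both kinds of tissue. Non-transgenic samples came from littermates without the transgene, aged 7 to 10 months, so age and genotype cannot be told apart in comparisons with them.

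The mean signal per array lay between 692 and 775, all arrays had been scaled to a trimmed mean of 500 and precision is limited by their number. Array transgenic 2 has labels that conflict (the title gives unaltered transgenic tissue, another entry tumor) and was kept as its title says. Xist, a transcript of female cells, was at 9670 to 15100 on dysplasia 3 and 4, transgenic 3 and non-transgenic 2 to 5, and at most 166 on the other arrays. Sex was thus unequal between transgenic and non-transgenic groups, and arrays dysplasia 4 and transgenic 4, which share a number, did not match. High Xist was seen on more dysplasia than transgenic arrays, so not every dysplasia array can have its own transgenic partner from the same mouse. Leaving out the arrays numbered 4 ended the calls of B3galt6, B4galt3, B4galt4, Mgat1 and St3gal6 in dysplasia against transgenic tissue, and leaving out transgenic 2 ended those of B3galt6 and B4galt3; values stand beside these genes. Actin signal of the 5' probe set as a share of the 3' one, which falls as RNA is degraded, ran from 12.5% to 75.2%. Of 14 endothelial markers, all were lower in dysplasia than in transgenic tissue (adjusted p under 0.05, limma), and their summed signal was 24113 to 34897 in dysplasia, 66694 to 91982 in transgenic and 77127 to 97859 in non-transgenic tissue. Of 9 alveolar type 2 markers, 1 was higher and 0 were lower, and Sftpc, which encodes surfactant protein C, averaged 20371 ± 7132 (SD, n = 5) in dysplasia against 22086 ± 8193 in transgenic tissue. Of 9 alveolar type 1 markers 6 were lower and 1 higher (summed signal 61358 to 94893 in dysplasia and 80075 to 130431 in transgenic tissue). Club cell markers were higher for 4 of 6, and ciliated cell markers for 3 of 3 (1460 to 1887 against 351 to 545). Of 10 fibroblast and 10 macrophage markers 4 and 7 were lower and 0 and 1 higher, and neutrophil, lymphocyte and red blood cell markers were lower for 3 of 3 (1268 to 2198 against 3931 to 9099), 4 of 8 and 2 of 2. In such tissue, fewer cells of a type and less RNA per cell cannot be told apart, and the part of these shifts in the results on glycosyltransferases was not tested.

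Members of 1 family could take opposite directions. Gcnt1, which opens the core 2 branch of O-glycans, rose in dysplasia against transgenic tissue, and Gcnt2, which makes the I branch of lactosamine chains, fell. Their RefSeq promoters (GRCm38.p6, 250 bases upstream of a listed start site) are shown for this contrast, 5' to 3', with GC boxes (GGGCGG) and TATA boxes (TATAAA) of either strand in capitals. Each gene has 3 listed start sites, of which the outermost was taken, so that the stretch lies outside the listed span of the gene, and the arrays do not tell which start was in use. The Gcnt1 stretch is chr19:17372845-17373094 on the minus strand and the Gcnt2 stretch is chr13:40859518-40859767 on the plus strand.
Gcnt1: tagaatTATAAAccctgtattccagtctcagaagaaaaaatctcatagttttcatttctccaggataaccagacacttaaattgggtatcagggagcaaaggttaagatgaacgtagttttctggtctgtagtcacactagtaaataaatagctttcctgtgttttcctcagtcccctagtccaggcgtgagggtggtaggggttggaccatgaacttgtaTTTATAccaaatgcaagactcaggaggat
Gcnt2: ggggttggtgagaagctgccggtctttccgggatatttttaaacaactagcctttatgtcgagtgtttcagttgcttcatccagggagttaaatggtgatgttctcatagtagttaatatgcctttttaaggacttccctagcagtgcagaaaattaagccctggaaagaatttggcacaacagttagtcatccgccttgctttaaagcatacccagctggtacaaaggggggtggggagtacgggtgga
The Gcnt1 stretch is 40.4% G and C with 0 GC boxes and 2 TATA boxes, and the Gcnt2 stretch is 45.6% G and C with 0 of either. Windows of this kind, at any listed start, were found for 59 of the 82 members. Of the 34 windows of members with a call in dysplasia against transgenic tissue, 12 lay outside the listed span of their gene, 7 partly and 15 wholly within it. A window was found for 10 of the 16 members that were higher in dysplasia than in transgenic tissue and for 13 of the 16 that were lower. A GC box was found in 7 of these 10 and in 10 of these 13, against 35.4% of 27025 genes. Those genes were taken at any signal, while the called members passed the signal limit, so the shares are not like for like. Gcnt2 is counted through a window other than the one shown. The letters GGAAGT, part of many Ets sites, occurred in 2 of these 10 and 6 of these 13 (22.2% of all genes). Among these members, a TATA box (TATAAA) was present in Gcnt1 alone (14.3%), the forkhead letters TGTTTAC in St6galnac6 alone (3.54%), and CAAAGTCCA, part of the HNF4 site, in none (0.451%). Both strands were searched, each motif was counted by itself, a gene with several start sites counted when any window matched, and such matches are descriptions of letters only.

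Dysplasia was first set against unaltered tissue of transgenic mice, which asks what differs in the lesion itself. Of the 54 tested members, 16 were higher and 16 lower at an adjusted p under 0.05 (limma), or 59.3%. Of all 21658 tested probe sets 33.2% passed (15.3% higher, 17.9% lower), and of 11603 genes read by their brightest probe set 39.6% (18.6% higher, 21% lower). The members' median log2 change was -0.08, against -0.01 over all tested probe sets. The members thus moved to both sides, and each role held genes of both directions. Dysplasia arrays did not overlap with transgenic arrays for 27 members, with 25.3% of all probe sets as background. That background counts every tested probe set and not the brightest of each gene, so it is not like for like. Since the signal limit favours genes raised in any group, the fit was also made without it, and then 18 of 82 members (22%) were higher and 18 (22%) lower, against 12.4% and 14.6% of 18193 genes by their brightest probe set and 8.04% and 9.82% of 45037 probe sets.

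**Figure D1:**
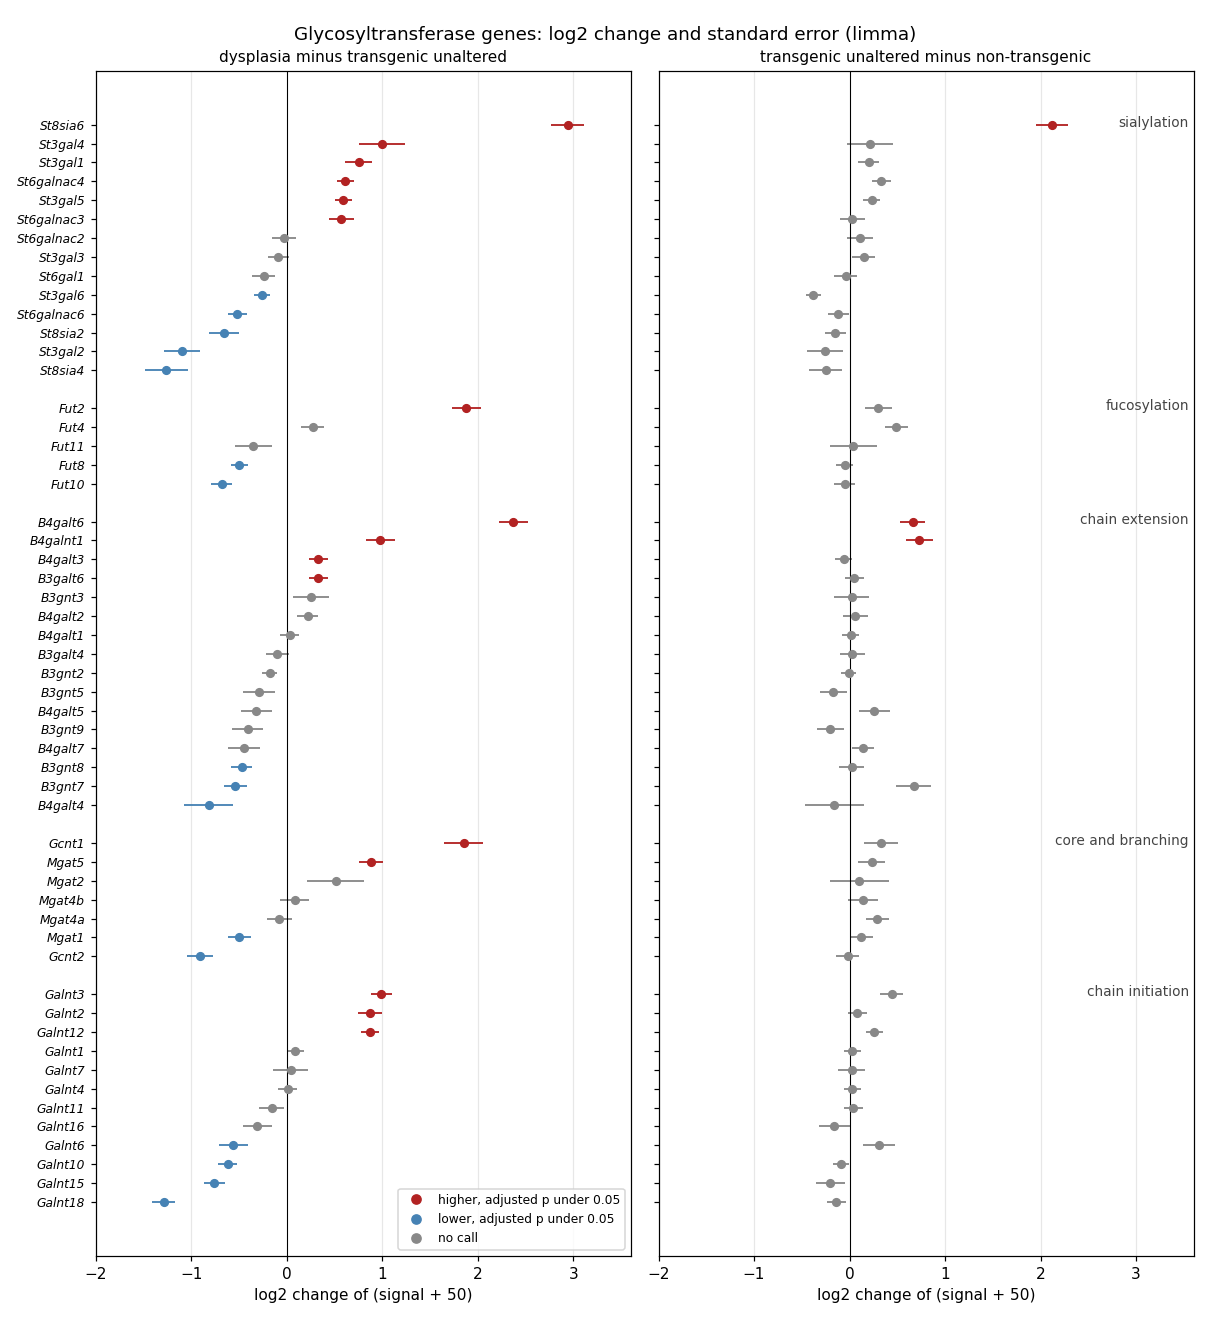
Log2 change of signal plus 50 (x axis) for the 54 tested members, grouped by role, in dysplasia against transgenic unaltered tissue (left) and in transgenic unaltered against non-transgenic tissue (right); dots are estimates and bars 1 standard error from limma, 5 arrays per group. On the left 16 members lie to the right and 16 to the left with a call, led by St8sia6 at 2.94 and Galnt18 at -1.29; on the right 3 members have a call.

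Among the enzymes that start O-glycans, 3 of 12 tested members were higher and 4 lower (58.3%, against 39.6% of all genes). Galnt3, Galnt12 and Galnt2 rose, with log2 changes of 0.99, 0.87 and 0.87, while Galnt18, Galnt15, Galnt10 and Galnt6 fell. Signals of Galnt3 on arrays 1 to 5 were 1138, 1079, 1450, 1106 and 1212 in dysplasia, 535, 666, 617, 487 and 578 in transgenic tissue and 424, 321, 373, 481 and 473 in non-transgenic tissue. Every dysplasia array was above every control array, a 2.08-fold rise over transgenic tissue (log2 change 0.99 with a standard error of 0.11, adjusted p = 5.41e-05). For Galnt12 the arrays read 352, 300, 424, 363 and 391 in dysplasia, 173, 187, 170, 180 and 171 in transgenic tissue and 139, 125, 143, 117 and 174 in non-transgenic tissue, a rise of 2.08-fold (log2 change 0.87 with a standard error of 0.09, adjusted p = 4.18e-05). Again no dysplasia array overlapped with either control. Galnt2, a broadly expressed starter of O-glycans, had 4177, 2780, 4242, 3780 and 3211 in dysplasia, 2145, 1797, 1821, 1967 and 2012 in transgenic tissue and 1624, 2000, 2141, 1667 and 1810 in non-transgenic tissue (1.87-fold over transgenic tissue, log2 change 0.87 with a standard error of 0.13, adjusted p = 0.000301). Its other tested probe sets gave log2 changes of 0.78 and 0.70 without a call, and the mean over the 3 gave an adjusted p of 0.0545.

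Galnt18 fell by 1.29 on the log2 scale, the largest fall among tested members. Its arrays read 827, 848, 958, 1073 and 1080 in dysplasia, 2255, 1977, 2554, 2585 and 2675 in transgenic tissue and 2480, 2597, 2593, 2892 and 2716 in non-transgenic tissue (standard error 0.12, adjusted p = 1.51e-05). The highest dysplasia array, 1080, was below the lowest of all control arrays, 1977. Galnt15 read 151, 126, 94.3, 136 and 105 in dysplasia, 271, 217, 211, 254 and 257 in transgenic tissue and 405, 226, 334, 265 and 225 in non-transgenic tissue (ratio 0.507 to transgenic tissue, log2 change -0.76 with a standard error of 0.11, adjusted p = 0.000338), and its second tested probe set also fell, by 0.68 on the log2 scale. Galnt10 read 143, 112, 139, 135 and 92.9 in dysplasia, 208, 223, 218, 223 and 214 in transgenic tissue and 269, 218, 236, 226 and 223 in non-transgenic tissue (ratio 0.572, log2 change -0.62 with a standard error of 0.10, adjusted p = 0.000548). Dysplasia arrays of both genes lay near the signal limit, so the size of these falls is less firm. Galnt6 had 161 ± 26.7 (SD, n = 5) in dysplasia against 264 ± 63.7 in transgenic tissue (log2 change -0.56 with a standard error of 0.15, adjusted p = 0.0126). The widely expressed Galnt1 (0.09, 95% interval -0.10 to 0.29) and Galnt4 (0.01, interval -0.20 to 0.22) had no call, nor had Galnt7, Galnt11 and Galnt16. With the array number as a block Galnt16 was lower as well (log2 change -0.31, adjusted p = 0.0234). The endothelial markers above fell beside these members, and their part was not tested.

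Of 7 tested branching enzymes 2 rose and 2 fell (57.1%, against 39.6% of all genes). The core 2 enzyme Gcnt1 rose 4.08-fold. Its signals were 1029, 868, 1411, 866 and 847 in dysplasia, 146, 358, 242, 212 and 273 in transgenic tissue and 174, 140, 162, 205 and 228 in non-transgenic tissue (log2 change 1.85 with a standard error of 0.20, adjusted p = 4.03e-05). The lowest dysplasia array, 847, was above the highest transgenic array, 358. Gcnt2 went the other way, with 1314, 1666, 1690, 1702 and 1476 in dysplasia, 2279, 3281, 3308, 2664 and 3605 in transgenic tissue and 3036, 2782, 3043, 3133 and 3121 in non-transgenic tissue (log2 change -0.91 with a standard error of 0.14, adjusted p = 0.000359). The highest dysplasia array, 1702, was below the lowest control array, 2279, and a dimmer second probe set gave -0.45 with no call.

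Mgat5, which adds a late branch to N-glycans that favours long lactosamine chains, read 875, 824, 1139, 993 and 960 in dysplasia, 394, 405, 574, 567 and 564 in transgenic tissue and 440, 389, 322, 426 and 506 in non-transgenic tissue. It rose 1.91-fold (log2 change 0.88 with a standard error of 0.13, adjusted p = 0.000432), its second probe set rose by 0.80 on the log2 scale, and dysplasia did not overlap with either control. Mgat1, the enzyme that commits N-glycans to the hybrid and complex types, read 1550, 1253, 1476, 1345 and 1558 in dysplasia, 2572, 1613, 2109, 2111 and 1950 in transgenic tissue and 1991, 1749, 2051, 1807 and 1826 in non-transgenic tissue. It fell by 0.50 on the log2 scale (standard error 0.12, adjusted p = 0.0087), a call that was lost without the arrays numbered 4 (adjusted p = 0.052). Mgat2, the next enzyme on that route, had 1551 ± 561 (SD, n = 5) in dysplasia against 1076 ± 413 in transgenic tissue, with no call (0.51, adjusted p = 0.233), but it rose when the array number was a block (adjusted p = 0.000757). Mgat4a and Mgat4b, which open another antenna, had no call, with log2 changes of -0.08 (95% interval -0.36 to 0.20) and 0.08 (interval -0.25 to 0.41). Mgat3, which bisects N-glycans, was too dim for the main test, with a mean of 101 ± 15.6 (SD, n = 5) in dysplasia against 43.4 ± 24 in transgenic tissue; in the fit without a signal limit its log2 change was 0.73 (adjusted p = 0.00962).

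**Figure D2:**
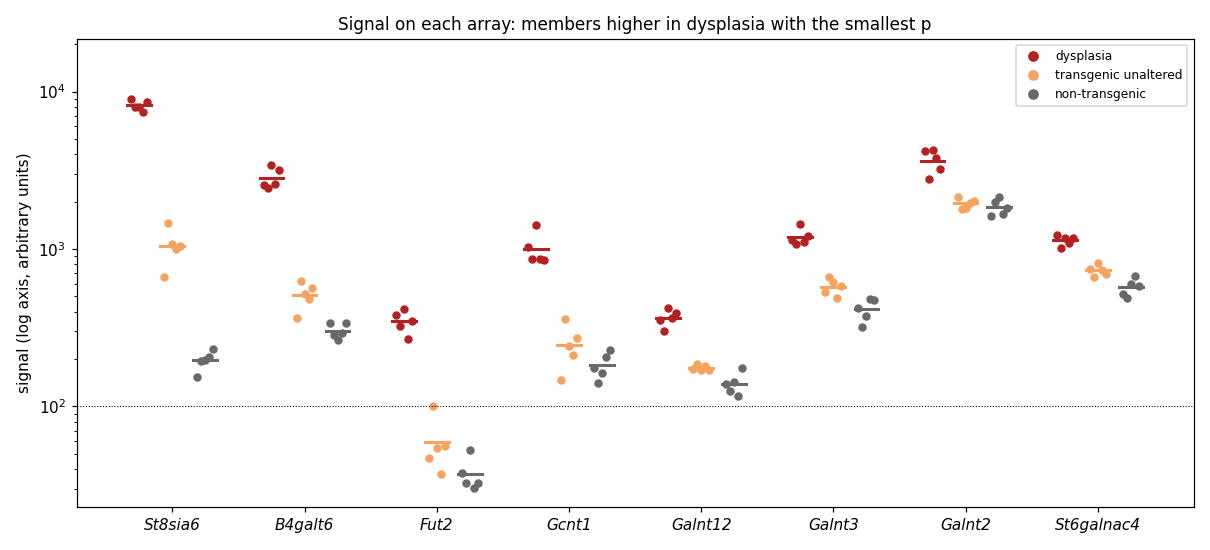
Signal (log axis) on each of the 15 arrays for the 8 members that were higher in dysplasia than in transgenic tissue with the smallest p; dots are arrays, bars group means, and the dotted line is the signal limit of 100. St8sia6 lies at 7413 to 9035 in dysplasia, 662 to 1453 in transgenic and 153 to 232 in non-transgenic tissue, and in none of the 8 genes do dysplasia arrays reach down to either control.

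Among 16 tested enzymes of chain extension 4 were higher and 3 lower (43.8%, near the 39.6% of all genes). B4galt6, a lactosylceramide synthase that makes the base of most glycosphingolipids, led with a 5.55-fold rise. Its signals were 2536, 2452, 3438, 2603 and 3162 in dysplasia, 366, 624, 517, 481 and 567 in transgenic tissue and 339, 286, 262, 292 and 337 in non-transgenic tissue (log2 change 2.37 with a standard error of 0.15, adjusted p = 1.47e-06). All 4 of its probe sets passed the limit and the test, with log2 changes from 1.36 to 2.37. B4galt5, the other known lactosylceramide synthase, had 409 ± 76.9 (SD, n = 5) in dysplasia against 526 ± 116 in transgenic tissue. It had no call (-0.32, adjusted p = 0.148) and was lower with the array number as a block (adjusted p = 0.0136).

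B4galnt1, which adds N-acetylgalactosamine to start complex gangliosides, read 2495, 1864, 3023, 2123 and 2568 in dysplasia, 1085, 1377, 1391, 1230 and 908 in transgenic tissue and 607, 603, 719, 860 and 707 in non-transgenic tissue. It rose 2.02-fold over transgenic tissue (log2 change 0.98 with a standard error of 0.15, adjusted p = 0.000502), and its groups stood in steps, with every dysplasia array above every transgenic array and every transgenic array above every non-transgenic array. B3galt4, which acts after it in the same route, had no call (-0.10, 95% interval -0.36 to 0.16). B4galt3 (0.33) and B3galt6, an enzyme of the proteoglycan linker (0.33), rose slightly. These calls were not firm. That of B4galt3 was lost when dysplasia 3 or 5 or transgenic 2, 3 or 4 was left out alone (adjusted p = 0.0516 to 0.0691, with 0.0599 for transgenic 2). That of B3galt6 was lost without dysplasia 2 or 4 or transgenic 2, 3, 4 or 5 (0.0538 to 0.0758, with 0.0542 for transgenic 2). Leaving out the arrays numbered 4 gave 0.115 and 0.108.

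The lower members were B4galt4 (-0.82, adjusted p = 0.0317), B3gnt7, an enzyme of keratan sulfate chains (-0.54, adjusted p = 0.00415), and B3gnt8 (-0.47, adjusted p = 0.00656). The call of B4galt4 was lost when dysplasia 2, 3 or 5 or transgenic 1, 3 or 4 was left out alone (adjusted p = 0.0665 to 0.0777), and without the arrays numbered 4 (0.0881). B3gnt9, B3gnt5 and B4galt7, the last an enzyme of the proteoglycan linker, had no call, with log2 changes of -0.41, -0.29 and -0.45. All 3 were lower with the array number as a block (adjusted p = 0.0221, 0.0361 and 0.00434). B4galt7 was also lower in the fit of all 3 groups (adjusted p = 0.0324, limma) and with probe sets averaged by gene (0.0452). Without certain single arrays B4galt7 (adjusted p = 0.0315 to 0.0406), B3gnt9 (0.0438 and 0.0441) and B3gnt5 (0.0225) were called lower too. B4galt1, the main galactosyltransferase of N-glycans, had 3204 ± 288 (SD, n = 5) in dysplasia against 3141 ± 337 in transgenic tissue, with a 95% interval of -0.20 to 0.26 for the log2 change.

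Fucosyltransferases split likewise, with 1 of 5 tested members higher and 2 lower (60%, against 39.6% of all genes). Fut2, the secretor enzyme that makes H antigen on epithelia, read 379, 326, 414, 269 and 347 in dysplasia, 46.9, 100, 54.7, 36.9 and 56.2 in transgenic tissue and 37.7, 32.4, 52.7, 30.3 and 32.4 in non-transgenic tissue. Both controls were near the background of the arrays and dysplasia was well above it, so the 5.88-fold ratio is not firm in size (log2 change 1.88 with a standard error of 0.15, adjusted p = 8.18e-06). Fut8, which adds the core fucose of N-glycans, read 539, 603, 619, 587 and 534 in dysplasia, 779, 931, 933, 754 and 803 in transgenic tissue and 792, 931, 849, 923 and 851 in non-transgenic tissue. It fell by 0.50 on the log2 scale with no overlap (standard error 0.09, adjusted p = 0.0015). Fut10 read 52.9, 44.5, 71.2, 73.1 and 51.8 in dysplasia, 129, 99.3, 115, 131 and 147 in transgenic tissue and 133, 98, 161, 124 and 135 in non-transgenic tissue (log2 change -0.68 with a standard error of 0.11, adjusted p = 0.000606). In dysplasia all its arrays were below the limit of 100. Fut4, which makes Lewis x structures, had no call against transgenic tissue (0.27, adjusted p = 0.0945). Fut11 had none on its brightest probe set (-0.35, adjusted p = 0.194), but its second probe set fell by 0.43 on the log2 scale (adjusted p = 0.00322), as did the brightest with the array number as a block (adjusted p = 0.0211).

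**Figure D3:**
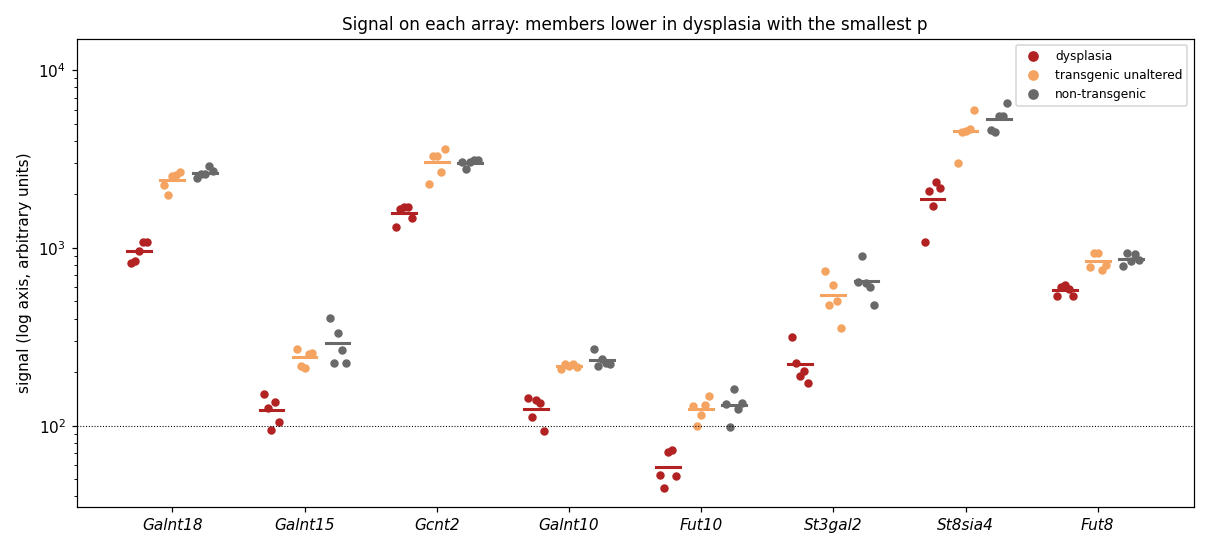
Signal (log axis) on each of the 15 arrays for the 8 members that were lower in dysplasia than in transgenic tissue with the smallest p; dots are arrays, bars group means, and the dotted line is the signal limit of 100. Galnt18 lies at 827 to 1080 in dysplasia and at 1977 to 2892 over both controls, and none of the 8 genes had a call between the controls.

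Among sialyltransferases 6 of 14 tested members were higher and 5 lower (78.6% with a call, against 39.6% of all genes). This was the highest share of the 5 roles in this comparison. Against non-transgenic tissue fucosylation had 80% and sialylation 78.6%. St8sia6 rose 7.81-fold over transgenic tissue. It adds a sialic acid to an existing one, mainly on O-glycans. Its signals were 9035, 7947, 7933, 7413 and 8536 in dysplasia, 662, 1453, 1080, 998 and 1039 in transgenic tissue and 153, 193, 196, 206 and 232 in non-transgenic tissue (log2 change 2.94 with a standard error of 0.17, adjusted p = 1.03e-06). The 3 groups stood far apart, and all 3 of its probe sets rose, with log2 changes of 2.94, 3.16 and 3.36. St8sia4, which polymerises polysialic acid, read 1086, 2088, 1725, 2341 and 2182 in dysplasia, 3016, 4481, 4526, 4673 and 5938 in transgenic tissue and 4602, 4468, 5499, 5508 and 6497 in non-transgenic tissue. It fell by 1.26 on the log2 scale (standard error 0.22, adjusted p = 0.00113), dysplasia 1 being the lowest array and none reaching the controls. St8sia2, the other enzyme of polysialic acid, read 183, 134, 73.1, 151 and 107 in dysplasia, 232, 212, 208, 233 and 258 in transgenic tissue and 192, 272, 279, 251 and 310 in non-transgenic tissue. It was lower as well (-0.66, adjusted p = 0.00635). St8sia1, which makes the ganglioside GD3, was too dim to test, at 63.1 ± 19.5 (SD, n = 5) in dysplasia against 48 ± 7.97 in transgenic tissue.

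Members of the St3gal family, which add sialic acid to terminal galactose, took both directions. St3gal1, which caps the core of O-glycans, read 1012, 794, 876, 613 and 769 in dysplasia, 568, 414, 529, 408 and 392 in transgenic tissue and 431, 379, 425, 358 and 365 in non-transgenic tissue (log2 change 0.75 with a standard error of 0.14, adjusted p = 0.00201). St3gal2, which shares that acceptor and also acts on gangliosides, read 316, 226, 190, 204 and 174 in dysplasia, 740, 478, 622, 506 and 354 in transgenic tissue and 640, 905, 636, 601 and 479 in non-transgenic tissue (log2 change -1.10 with a standard error of 0.19, adjusted p = 0.000873). The first was higher and the second lower in dysplasia, each without overlap, and the second probe set of St3gal2 fell by 1.09 on the log2 scale. St3gal5, which makes the ganglioside GM3 from lactosylceramide, read 1400, 1493, 1560, 1571 and 1490 in dysplasia, 906, 1127, 883, 1045 and 951 in transgenic tissue and 877, 767, 803, 844 and 851 in non-transgenic tissue. It rose 1.53-fold (log2 change 0.59 with a standard error of 0.09, adjusted p = 0.000426) with little spread, and a dimmer probe set gave 0.73 without a call. St3gal4, which caps lactosamine chains, had 1294 ± 340 (SD, n = 5) in dysplasia against 625 ± 174 in transgenic tissue, a 2.07-fold rise in which dysplasia 5, at 796, was below transgenic 2, at 806 (standard error 0.24 on the log2 scale, adjusted p = 0.00685).

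St3gal6, which acts on similar chains, read 1127, 1052, 960, 1080 and 1068 in dysplasia, 1212, 1185, 1309, 1281 and 1380 in transgenic tissue and 1712, 1476, 1635, 1755 and 1817 in non-transgenic tissue. It was slightly lower in dysplasia (-0.26, adjusted p = 0.0325), a call that was lost when dysplasia 2, 3, 4 or 5 or transgenic 3, 4 or 5 was left out alone (adjusted p = 0.0508 to 0.0825), without the arrays numbered 4 or 5 (0.103 and 0.114) and with Xist as a covariate (0.0551). St6galnac4, which sialylates the inner sugar of capped O-glycans, read 1231, 1016, 1171, 1097 and 1169 in dysplasia, 743, 665, 814, 739 and 689 in transgenic tissue and 514, 491, 602, 674 and 578 in non-transgenic tissue. It rose 1.56-fold (log2 change 0.61 with a standard error of 0.09, adjusted p = 0.000322), while its dimmer probe set gave 0.22 with no call. St6galnac3 rose by 0.57 and St6galnac6 fell by 0.52 on the log2 scale (adjusted p = 0.00578 and 0.00228). Arrays of St6galnac6 read 418, 555, 517, 512 and 562 in dysplasia, 762, 683, 838, 691 and 797 in transgenic tissue and 1036, 664, 785, 850 and 822 in non-transgenic tissue. St6gal1, the main alpha-2,6-sialyltransferase of N-glycans, had 3656 ± 374 (SD, n = 5) in dysplasia against 4344 ± 667 in transgenic tissue. It had no call (-0.24, adjusted p = 0.168), and was lower with the array number as a block (adjusted p = 0.0309). St3gal3 and St6galnac2 had no call, with log2 changes of -0.09 and -0.03 and 95% intervals of -0.33 to 0.15 and -0.31 to 0.25.

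The other 28 members lay under the signal limit. In the fit of all probe sets without that limit, Galnt5 and Mgat3 were higher and Fut7, B3gnt6 and St6galnac1 lower in dysplasia than in transgenic tissue. The means of Fut7, which caps leukocyte ligands of selectins, were 20.9 ± 9.56 (SD, n = 5) in dysplasia against 54.8 ± 14.5 in transgenic tissue (log2 change -0.56, adjusted p = 0.00803). These values lie near background, and no fold is given.

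Against non-transgenic lung, which asks how the lesion differs from tissue without the transgene, 17 of 54 tested members were higher and 17 lower (63%). Of all tested probe sets 44% passed (20.7% higher, 23.3% lower), and of genes by their brightest probe set 50.7% (24.7% higher, 26% lower). Arrays did not overlap for 32 members, with 33.3% of all probe sets as background, again not taken per gene. Without the signal limit 19 of 82 members (23.2%) were higher and 20 (24.4%) lower, against 16.3% and 19% of genes by their brightest probe set and 10.7% and 14.1% of probe sets. Both comparisons use the same dysplasia arrays and are therefore not independent; 16 members were higher and 14 lower in both. The median log2 change of the members was 0.05 and that of all probe sets -0.03. St8sia6 was 41.7-fold above non-transgenic tissue (log2 change 5.07 with a standard error of 0.10, adjusted p = 5.88e-10), and B4galt6 was 9.37-fold above it (log2 change 3.02 with a standard error of 0.12, adjusted p = 3.11e-08). Fut2, over a base near background, had a log2 change of 2.18, Gcnt1 of 2.17 and B4galnt1 of 1.71. St8sia4, Galnt18 and St3gal2 fell by 1.51, 1.43 and 1.36 on the log2 scale (adjusted p = 9.17e-05, 1.12e-06 and 6.67e-05).

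Members with a call in this comparison alone were Fut4, B3gnt5, B3gnt9 and Galnt16. Fut4 had 420 ± 68.3 in dysplasia and 228 ± 45.9 (SD, n = 5) in non-transgenic tissue, a ratio of 1.84 (log2 change 0.76 with a standard error of 0.14, adjusted p = 0.000907). B3gnt5, which starts lacto-series glycolipids, was lower (-0.46, adjusted p = 0.00777), as were B3gnt9 (-0.61, adjusted p = 0.00855) and Galnt16 (-0.48, adjusted p = 0.0105). The call of Galnt16 ended with quantile normalization (adjusted p = 0.0524) and without the arrays numbered 4 (0.0599), and that of B3gnt8, also lower, ended with quantile normalization (0.105). B4galt3, slightly higher, had no call without dysplasia 3 (adjusted p = 0.0522) or without the arrays numbered 5 or 4 (0.0651 and 0.0749), and B3galt6 had none without the arrays numbered 4 (0.0974). B3gnt7 and Galnt6, lower against transgenic tissue, had no call here (0.13 and -0.25). Whether a member differed between the 2 comparisons was not tested.

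Unaltered transgenic tissue was set against non-transgenic lung to ask what the transgene goes with in tissue of unaltered look. By the study's methods, this tissue came from mice that also held dysplastic foci, so it is not a stage before dysplasia. Only 3 of 54 tested members were higher and 0 lower (limma), or 5.56%, and at an unadjusted p under 0.05, 10 were higher and 1 lower. Of all probe sets 1.26% passed (1.17% higher, 0.0831% lower), and of genes by their brightest probe set 1.71% (1.59% higher, 0.121% lower). Arrays did not overlap for 7 members, with 4.3% of all probe sets as background, again not taken per gene. Without the signal limit 2 of 82 members (2.44%) were higher and 0 lower, against 0.83% and 0.0605% of genes by their brightest probe set and 0.449% and 0.0355% of probe sets. St8sia6 rose 5.34-fold, from 196 ± 28.6 to 1046 ± 281 (SD, n = 5; log2 change 2.12 with a standard error of 0.17, adjusted p = 0.000333). Its other probe sets rose by 2.10 and 1.31 on the log2 scale, and every transgenic array, the lowest at 662, was above the highest non-transgenic one, at 232. B4galnt1 and B4galt6 were 1.71 and 1.69 times the non-transgenic level (log2 change 0.73 with a standard error of 0.14, adjusted p = 0.027, and log2 change 0.66 with a standard error of 0.13, adjusted p = 0.0355), in both without overlap of the arrays. The other 3 tested probe sets of B4galt6 had no call, with log2 changes of 0.23, 0.16 and 0.42. The second probe set of B4galnt1 lay under the signal limit and had no call in the fit without it (log2 change 0.01, adjusted p = 0.998, limma).

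The last 2 calls were not firm. That of B4galnt1 was lost when transgenic 2, 3 or 4 or non-transgenic 1, 2, 3 or 5 was left out alone (adjusted p = 0.0504 to 0.0867), and that of B4galt6 when any single array but transgenic 1 was left out (0.0501 to 0.113), with Xist as a covariate (0.223) and with the array number as a block (0.0597). St8sia6 kept its call under each of these. St3gal6 was 1679 ± 131 in non-transgenic and 1273 ± 78.1 (SD, n = 5) in transgenic tissue, without overlap but just short of a call (log2 change -0.38 with a standard error of 0.08, adjusted p = 0.0565). B3gnt7 had no call (0.67, adjusted p = 0.125) and was higher with the array number as a block (adjusted p = 0.0477). Age and, in part, sex differ between these groups of mice, and their part in the values was not tested beyond the covariate.

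Other genes of glycan metabolism were read from lists beside the members. Of 28 tested genes of nucleotide sugar synthesis and transport, 11 were higher and 0 lower in dysplasia than in transgenic tissue (12 and 1 at an unadjusted p under 0.05, limma), with a median log2 change of 0.19. In all, 39.3% of the list had a call, near the 39.6% of all genes by their brightest probe set (18.6% higher, 21% lower). The higher genes included Gfpt1, the entry enzyme of the hexosamine pathway, from 2603 ± 291 to 4721 ± 578 (SD, n = 5, log2 change 0.84, adjusted p = 0.000197). Also higher were the nucleotide sugar transporter gene Slc35d1 (0.91, adjusted p = 0.000181), the GDP-fucose enzyme gene Gfus (0.61, adjusted p = 0.000553) and Mpi (0.74, adjusted p = 0.000983). Cmas and Nans, which make activated sialic acid, rose by 0.40 and 0.45, whereas the CMP-sialic acid transporter Slc35a1 had 0.14 and no call. Against non-transgenic tissue 14 of the 28 were higher and 1 lower (53.6% with a call, near the 50.7% of all genes), and between the controls 0 were higher and 0 lower (6 and 0 at an unadjusted p under 0.05, limma). Genes of N-glycan assembly and trimming gave 6 rises and 1 fall among 29 (24.1%, below the 39.6% of all genes), with Alg8, Man2a2 and Alg10b higher (0.62, 0.58 and 0.39) and the mannosidase gene Man1c1 lower (-0.40).

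Among 19 other chain-building transferases 0 were higher and 7 lower (1 and 8 at an unadjusted p under 0.05, limma), or 36.8%, near the 39.6% of all genes. B3galnt1 (-1.08, adjusted p = 5.86e-05) and A4galt (-0.92, adjusted p = 0.000728), both of the globo-series of glycolipids, fell, as did Mfng, which modifies Notch (-0.89, adjusted p = 6.6e-05), and Eogt (-0.64, adjusted p = 0.000114). Ugcg, which makes glucosylceramide, the precursor of lactosylceramide, had 0.11 (95% interval -0.13 to 0.35). Of 14 genes of glycan removal and modification 4 rose and 3 fell (50%, against 39.6% of all genes). The sulfotransferase gene Chst1 was at -2.30, Chst2 at -0.95, the sulfatide enzyme gene Gal3st1 at 0.87 and the galactosidase gene Glb1 at 0.54.

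Carriers and readers of glycans were also listed. Of 10 tested mucin-type carriers 3 rose and 5 fell (80%, against 39.6% of all genes). The membrane mucin Muc4 rose from 378 ± 98.9 to 922 ± 216 (SD, n = 5; 1.18, adjusted p = 0.000625) and Muc1 from 6982 ± 747 to 10306 ± 1336 (0.56, adjusted p = 0.00333), while the sialomucins Podxl and Spn fell by 1.53 and 0.92 on the log2 scale. Among 13 lectins 0 rose and 6 fell (0 and 7 at an unadjusted p under 0.05, limma), or 46.2%, against 39.6% of all genes (18.6% higher, 21% lower). Among those that fell were the sialic acid receptors Cd22 (-0.87) and Siglecf (-0.86), Lgals4 (-0.33) and Clec7a (-0.38). Podxl is known from endothelium, and Cd22, Siglecf and Spn from immune cells. In the same comparison 7 of 10 macrophage markers, Siglecf among them, and 4 of 8 lymphocyte markers were lower, and their part was not tested. The listed carriers Emcn and Pdpn also stand among the endothelial and alveolar type 1 markers, so these lists are not separate. Between the controls, Muc1, Siglecf and Clec7a were the carriers and lectins with a call, with log2 changes of 0.95, 1.13 and 0.89 in transgenic over non-transgenic tissue, where 3 of 10 macrophage markers, Siglecf among them, were higher.

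**Figure D4:**
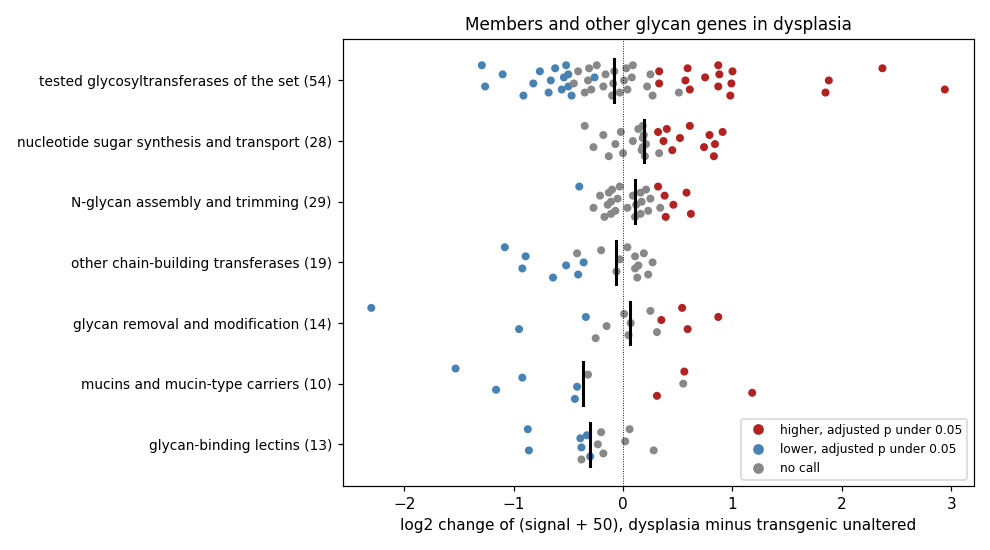
Log2 change of signal plus 50 in dysplasia against transgenic unaltered tissue (x axis) for the tested members and 6 lists of other glycan genes (y axis, number of tested genes in parentheses); dots are genes, coloured red for a rise, blue for a fall and grey for no call, with the median as a bar. The members spread from -1.29 to 2.94 around a median of -0.08. The 28 genes of nucleotide sugar supply hold 11 rises and no fall, a share of calls (39.3%) near that of all genes (39.6%).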

How the data were processed

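Laser-microdissected lung was measured on Affymetrix mouse arrays, 1 per sample. The deposited intensity values were made by the authors with GCOS (named in the submitters' processing notes, version not given in the sources used here), which summarised the probes into a signal for every probe set, with a target of 500 for the array. They were used on their linear scale as deposited, and the trimmed mean was checked to be 500.0 on every array. Raw scans were not analysed here.

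Of 45101 probe sets 64 controls were left out. The platform annotation gave 34945 of the rest 1 gene symbol, 932 several and 9160 none, and 34741 symbols were matched to current names through the gene number. Of 88 genes in the RefSeq table (GRCm38.p6) that fit the rule, 6 have no probe set of their own. The 21658 probe sets with a mean signal above 100 were fitted as log2 of the signal plus 50 with limma 3.58.1 in R 4.3.3, unpaired, each comparison on its own 10 arrays, and p-values were adjusted over all of them by the method of Benjamini and Hochberg (threshold 0.05). Ratios are of mean signals. The fit was tested on simulated data. Values of every array are given for the 8 rises and 8 falls with the smallest p against transgenic tissue, for the 4 further rises and 4 further falls with the smallest p against non-transgenic tissue, and for members called between the controls. Each pathway list is shown by its 4 genes with the smallest p against transgenic tissue; Cmas, Nans, Slc35a1 and Ugcg were added after their values were seen.

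Members, lists and named genes were chosen with earlier results of these data known. The main fits did not pair arrays, and the array number as a block was an alternative only. For dysplasia with transgenic arrays, the deviations of same-numbered arrays from their group means correlated at 0.219 to 0.773. For transgenic with non-transgenic arrays, which came from different mice, they did so at 0.135 to 0.793. For dysplasia with non-transgenic arrays the range was 0.261 to 0.727 apart from the number 4, which gave -0.00366. These correlations cannot tell whether a number marks a mouse. The study's methods say that both transgenic tissues came from the same mice, but by their Xist signals the arrays cannot all be paired in this way. The labels do not say that a number marks a mouse. Alternatives were other scaling, log offset and signal limits, a fit of all 3 groups, a variance trend, the mean over probe sets, Xist or the actin ratio as a covariate, the array number as a block, and single arrays left out.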

Additional observations from a re-analysis of the deposited data

Results flagged for a closer look

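In 6 of 162 sets of 5 arrays, the lowest or highest array of a tested member lay far from the other 4, where chance gives about 1 in 20 for either end. In all 6 it was the lowest array. B3gnt5 was 275 on transgenic 1 against 447 to 499 on the others, and B3gnt8 was 96.5 on the same array against 145 to 158. B3gnt8 was also 93.5 on non-transgenic 2 against 139 to 161, and Gcnt2 was 2782 there against 3036 to 3133. Mgat4b was 1374 on transgenic 5 against 2011 to 2242. St3gal4 was 295 on non-transgenic 5 against 543 to 616. Transgenic 5 and non-transgenic 5 had the lowest actin ratios, 12.5% and 14.1%, and their part in these values was not tested.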

How the results depend on the processing

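No member with a call changed direction under any alternative tried. Of the calls of members, 26 of 32 in dysplasia against transgenic, 30 of 34 in dysplasia against non-transgenic and 1 of 3 in transgenic against non-transgenic tissue held under all of them. Without single arrays, dysplasia had 14 to 16 members higher and 14 to 18 lower than transgenic tissue, and 16 to 19 higher and 17 to 19 lower than non-transgenic tissue. Transgenic tissue had 1 to 3 higher and 0 to 0 lower than non-transgenic tissue, with 1 higher when transgenic 2, 3 or 4 or non-transgenic 1 or 3 was left out. Leaving out the arrays numbered 4, or those numbered 5, was added after seeing the data; without those numbered 4, 1 member was higher there. Quantile normalization, a signal limit of 200, the fit of all 3 groups, the variance trend and the actin ratio as a covariate each gave 1 lower member in that comparison, St3gal6 (adjusted p = 0.0469, 0.0397, 0.0169, 0.0348 and 0.0206, limma). With the array number as a replicate block, 17 members were higher and 23 lower in dysplasia than in transgenic tissue, and the 8 calls gained stand beside B3gnt5, B3gnt9, B4galt5, B4galt7, Fut11, Galnt16, Mgat2 and St6gal1. Between the controls the block ended the call of B4galt6 and added that of B3gnt7 (adjusted p = 0.0597 and 0.0477, limma). Against non-transgenic tissue, where 4 of 5 numbers had correlated arrays, it gave 19 higher and 19 lower, adding B3gnt3, Mgat2, Fut11 and St6gal1 (adjusted p = 0.0459, 0.00419, 0.0384 and 0.024). It changed no other call of a member. In dysplasia against transgenic tissue the call of B3galt6 was also lost at the same total signal and with Xist or the actin ratio as a covariate (adjusted p = 0.055, 0.0545 and 0.0502), and that of B4galt4 without a signal limit (0.0541). Scaling moved the median of all probe sets to between -0.05 and 0.02. Members near a signal of 100, such as Fut2 in the controls and Fut10 in dysplasia, have folds that are not firm, and enzyme activity and glycans were not measured.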
